A study of Mus musculus with 12 samples.

Results

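Myl4, Myl7, Sln, Bmp10, Nr2f2, Myl2 and Irx4 are genes by which the atria and the ventricles of the mammalian heart are told apart, and their RNA was followed library by library in the heart and lung of Adam19 wild type (WT) and knockout (KO) mice. The 7 genes were taken by their symbols from a table of 55679 genes, and each had 1 row there. Each of 6 male mice gave 1 heart and 1 lung library, 12 in all, so that each tissue and genotype was represented by 3 animals. The mice were on the 129S6/SvEvTac background and, per the study's methods, 9 to 13 weeks old. KO mice were homozygous for an allele in which exons 6 and 7 of Adam19, a membrane-bound metalloprotease, were replaced by a tdTomato reading frame and an antisense hygromycin resistance cassette, and WT mice carried no targeted allele. The replicate number names the mouse, so WT heart 3 and WT lung 3 came from the same animal. The mouse identifiers carry a prefix that WT and KO mice do not share, and prefix and genotype cannot be told apart.

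Muscle cells of the atria and the ventricles build their sarcomeres from different myosin light chains. Myl7 and Myl4 encode the regulatory and the essential light chain of atrial muscle, and Myl2 and Myl3 encode their ventricular counterparts, which slow skeletal muscle also uses. Sarcolipin, the product of Sln, restrains the calcium pump of the sarcoplasmic reticulum and is an atrial protein in the adult mouse heart. Bmp10 encodes a secreted ligand made mainly by right atrial muscle that acts on the endothelial receptor ALK1, Nr2f2 encodes a nuclear receptor that sets atrial identity and is also used by venous and lymphatic endothelium, and Irx4 encodes a ventricular homeodomain factor. In mice, atrial-type heart muscle also forms a sleeve around the pulmonary veins that reaches into the lung.

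In the GRCm39 assembly Myl7 lies at chr11:5845449-5848792 on the minus strand and Myl4 at chr11:104440903-104486603 on the plus strand. Sln lies at chr9:53742537-53761846, Bmp10 at chr6:87405969-87415616, Myl2 at chr5:122238848-122251545 and Irx4 at chr13:73407700-73417745, all on the plus strand, and Nr2f2 lies at chr7:70001692-70016519 on the minus strand. All 7 are protein-coding. Myl7, Sln and Bmp10 were quantified from 1 transcript each, and ENSMUST00000106956 carried at least 98.2% of the Myl4 estimate in every library. That Myl4 transcript starts at position 104468064, inside the annotated gene. Annotated antisense transcripts overlap exons of Bmp10, Nr2f2 and Irx4, and the libraries were strand-specific. No other transcript matched Myl4, Myl7, Myl2, Sln or Bmp10 over 100 bases or more at 95% identity, and the longest stretch shared by the main transcripts was 16 bases for Myl7 and Myl2 and 29 bases for Myl4 and Myl3.

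The 160 bases just before the start of the main transcript are printed for the 3 atrial genes whose values moved together across hearts and for Myl2, which did not move with them. The runs read 5′ to 3′ on the strand of the gene, from the GRCm39 genome at chr11:5848793-5848952 (minus, Myl7), chr11:104467904-104468063 (plus, Myl4), chr9:53757288-53757447 (plus, Sln) and chr5:122238688-122238847 (plus, Myl2), and capitals mark the motifs found.
Myl7: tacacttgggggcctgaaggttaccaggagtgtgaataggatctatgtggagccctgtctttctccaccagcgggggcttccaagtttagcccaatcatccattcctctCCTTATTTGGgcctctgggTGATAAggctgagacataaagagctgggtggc
Myl4: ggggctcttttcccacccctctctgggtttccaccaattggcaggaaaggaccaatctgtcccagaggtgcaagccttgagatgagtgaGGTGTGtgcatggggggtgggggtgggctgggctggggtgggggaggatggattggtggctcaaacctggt
Sln: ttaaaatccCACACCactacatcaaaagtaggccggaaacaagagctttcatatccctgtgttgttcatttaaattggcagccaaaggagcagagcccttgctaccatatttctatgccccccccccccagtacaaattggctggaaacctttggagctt
Myl2: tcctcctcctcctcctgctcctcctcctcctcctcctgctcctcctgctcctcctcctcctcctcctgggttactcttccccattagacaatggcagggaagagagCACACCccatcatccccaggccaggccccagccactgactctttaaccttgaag

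The motifs were searched on both strands of the 250 bases before each start. The run of Myl7 holds a CArG box, the binding sequence of serum response factor, at positions -51 to -42 from the start, and a GATA site (TGATAA) at -32 to -27. A CArG box was present in 1.4% of 21751 promoter windows of that length and in 1 of the 7 genes. A GATA site, AGATAA or TGATAA, was found in 15.9% of windows and before Myl4, Myl7 and Bmp10. The T-box core GGTGTG, in 16.6% of windows, was found before Myl4 at -71, Myl2 at -54 and Sln at -151. TATAAA, in 11.9% of windows, was found before Sln only among the 7, AGGTCA, in 13.1%, before Myl7 only, and a MEF2 site, in 2.8%, before none of them. These matches describe the letters of the windows and were not tested for use.

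Estimated counts summed to between 18392292 and 35862932 in the hearts and to between 17674788 and 28043361 in the lungs. The values below are the deposited gene values, which are log2 of estimated counts after a scaling between libraries, so that a difference of 1 is a doubling. Adam19, the targeted gene, was lower in KO than in WT by a log2 difference of -3.14 in the heart (SE 0.31, adjusted p = 0.00558) and -5.51 in the lung (SE 0.33, adjusted p = 0.000186, limma with Benjamini-Hochberg adjustment), with no overlap between groups. The tissue labels matched their markers. The surfactant gene Sftpc lay between 16.32 and 17.28 in the lungs and between 4.78 and 7.71 in the hearts, and the atrial and ventricular myosin heavy chain Myh6 lay between 20.05 and 20.44 in the hearts and between 12.46 and 14.24 in the lungs.

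Among the atrial light chains, Myl7 was the more abundant. In the hearts its value was 14.78, 14.49 and 12.47 in WT and 15.03, 12.76 and 15.41 in KO. In the lungs it was 11.63, 10.77 and 12.15 in WT and 11.05, 11.00 and 10.14 in KO. WT heart 3 and KO heart 2 were low and the other 4 hearts were high, and every lung was below every heart. WT and KO overlapped in both tissues.

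Myl4, its essential partner, was low in the same pair of hearts. Its value was 14.45, 14.18 and 12.35 in WT hearts and 14.84, 12.24 and 15.16 in KO hearts. In the lungs it was 11.13, 10.48 and 11.16 in WT and 10.61, 10.40 and 9.72 in KO. The genotypes overlapped in each tissue, and the difference between Myl4 and Myl7 within a library stayed between -0.52 and -0.13 in the hearts and between -0.98 and -0.30 in the lungs.

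Sln was again low in WT heart 3 and KO heart 2. It stood at 12.28, 12.65 and 9.83 in WT hearts and at 12.50, 10.10 and 12.63 in KO hearts. In the lungs it stood at 8.34, 8.12 and 9.44 in WT and at 8.43, 8.01 and 7.41 in KO. WT lung 3 was the highest lung and KO lung 3 the lowest, as for Myl7, and the genotypes overlapped. Sln minus Myl7 lay between -2.79 and -1.85 in the hearts and between -3.28 and -2.62 in the lungs.

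Bmp10 was found in the hearts and not in the lungs. Its value was 10.64, 10.71 and 10.45 in WT hearts and 12.53, 7.55 and 11.95 in KO hearts, and it was listed at 0 in all 6 lungs. The WT hearts lay close together, while the KO hearts spanned the whole range on both sides of them. KO heart 2 was the lowest heart for Bmp10 as it was for Myl4, but WT heart 3, low for the light chains, was within 0.3 of the other WT hearts.

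Nr2f2 alone among the 7 had its higher values in the lungs. It measured 8.18, 8.76 and 7.21 in WT hearts and 8.41, 8.50 and 8.36 in KO hearts. In the lungs it measured 10.08, 10.29 and 9.70 in WT and 10.25, 9.81 and 10.46 in KO. All lungs were above all hearts, WT heart 3 was the lowest library, and the genotypes overlapped. Several Nr2f2 transcripts carried the estimate, among them an intron-retaining form with 30.9% to 41.1% of it in the lungs and 0.0% to 30.2% in the hearts.

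Myl2, the ventricular regulatory light chain, was the most abundant and the most even of the 7 in the hearts. It stood at 17.52, 17.12 and 17.48 in WT hearts and at 17.24, 17.24 and 17.46 in KO hearts, and no heart stood apart. In the lungs it stood at 6.56, 7.64 and 6.10 in WT and at 5.47, 2.53 and 8.31 in KO. The lungs were far below the hearts and spread widely, with KO lung 2 resting on 7.93 estimated counts, the smallest number behind any lung value of Myl2. The KO lungs reached above and below the WT lungs.

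Irx4 was 9.36, 9.36 and 10.17 in WT hearts and 9.59, 9.52 and 9.43 in KO hearts. In the lungs it was 1.16, 1.04 and 0 in WT and 0, 0 and 1.11 in KO, which is at or under the level of 3 counts in 6 of 6 lungs. WT heart 3, the lowest for Myl7 and Sln, was the highest heart for Irx4, and the other hearts differed by little.

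**Figure D1:**
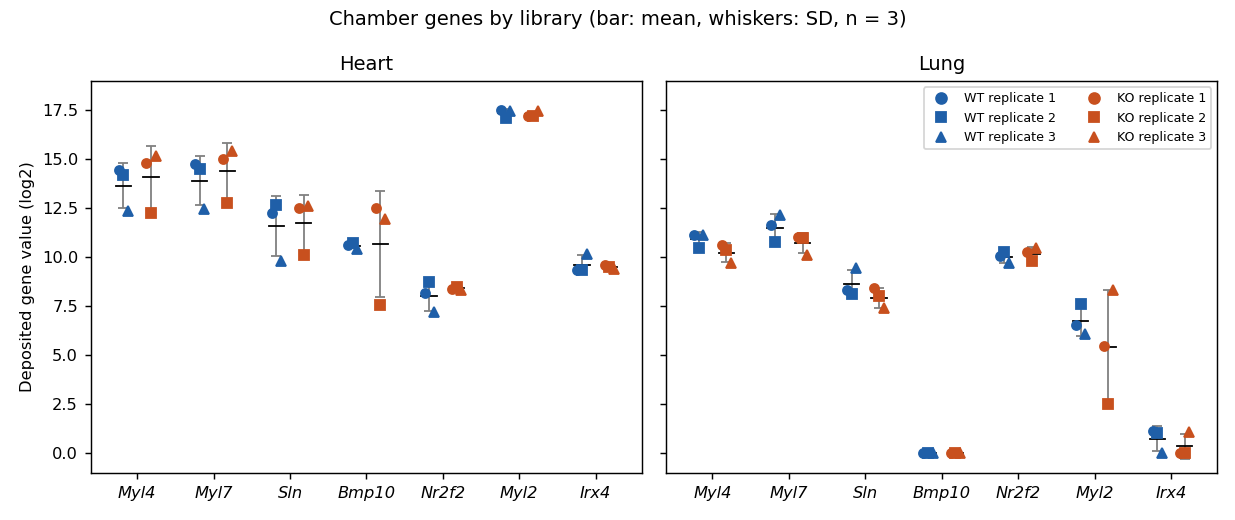
Deposited log2 gene values of the 7 genes in each heart (left) and lung (right) library, with WT in blue, KO in orange and the marker shape giving the replicate, that is the mouse. Horizontal bars are means of 3 libraries and whiskers are SD. WT replicate 3 and KO replicate 2 sit below the other hearts for Myl4, Myl7 and Sln, Myl2 is even in the hearts at 17.12 to 17.52, and Bmp10 is listed at 0 in every lung.

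Levels of different genes were compared per kilobase of transcript. On this log2 scale the order of mean levels in the heart was Myl2 (17.62), Myl7 (14.89), Myl4 (13.94), Sln (11.27), Bmp10 (8.23), Irx4 (8.07) and Nr2f2 (6.57). Myl2 was above Myl7 without overlap. Myl7 and Myl4 overlapped across hearts although Myl7 was the higher in 6 of 6, and Bmp10 and Irx4 did not differ beyond their spread, with Bmp10 the higher in 4 of 6. In the lung the order was Myl7 (11.85), Myl4 (10.66), Nr2f2 (8.40), Sln (7.89), Myl2 (6.38) and Irx4 (0.22), followed by Bmp10 at 0. Nr2f2 overlapped with Sln and Sln with Myl2, whereas Myl4 was above Nr2f2 in every lung. The first gene of the heart order was thus the fifth in the lung.

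Ratios of an atrial to a ventricular light chain within a library do not depend on the scaling between libraries. Myl7 minus Myl2 was -2.74, -2.63 and -5.01 in WT hearts and -2.22, -4.49 and -2.04 in KO hearts. It was 5.07, 3.13 and 6.05 in WT lungs and 5.58, 8.47 and 1.83 in KO lungs. The ventricular chain was in excess in every heart and the atrial chain in every lung.

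Expressed as a share per kilobase, Myl7 made up 17.0%, 18.2% and 4.09% of Myl7 plus Myl2 in WT hearts and 22.8%, 5.76% and 25.0% in KO hearts. In the lungs the share ran from 83.0% in KO lung 3 to 99.8% in KO lung 2, with a median of 98.2%. The essential chains gave a like picture, with Myl4 at 3.75% to 22.7% of Myl4 plus Myl3 in the hearts and at 78.6% to 93.3% in the lungs. WT heart 3 and KO heart 2 were again the lowest hearts. Myl7 over Myl2 spanned 7.79-fold among the 6 hearts, and each genotype held high and low hearts.

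**Figure D2:**
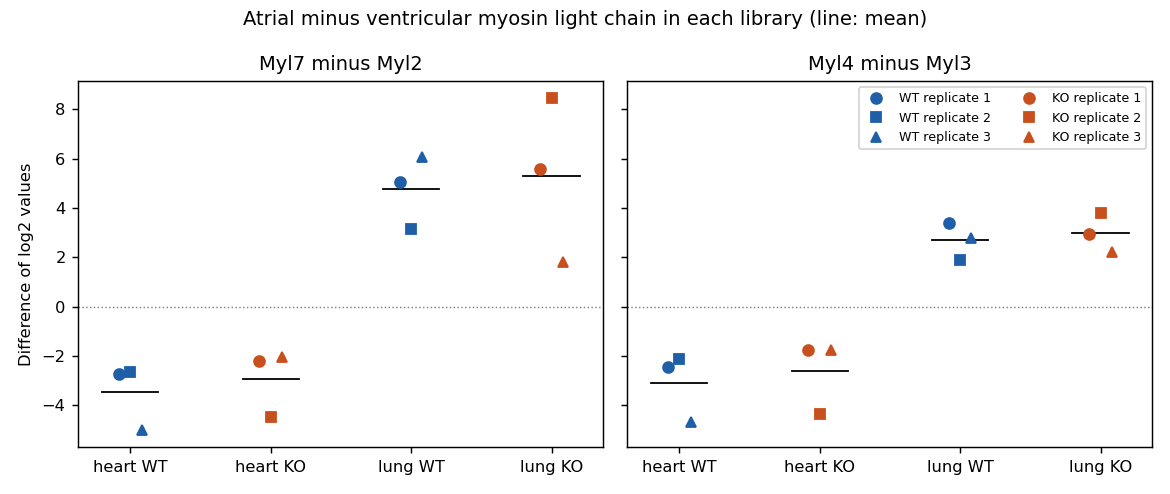
Difference of log2 values between the atrial and the ventricular regulatory light chain (Myl7 minus Myl2, left) and between the essential ones (Myl4 minus Myl3, right) in each library, with lines at the group means (n = 3). All hearts are below the dotted line at 0 and all lungs above it, and WT replicate 3 and KO replicate 2 are the lowest hearts in both panels.

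Between tissues of a mouse, Myl7 minus Myl2 in lung exceeded the heart value by 8.21 on average, and Myl4 minus Myl3 by 5.69, each in 6 of 6 mice. The first was 7.26 without the mouse of KO replicate 2 and 9.08 without that of KO replicate 3. Both differences had p = 0.0312 in a two-sided exact permutation test over mice, the smallest that 6 pairs can give, and p = 0.0938 after Benjamini-Hochberg adjustment over 6 ratio tests, so neither passed the threshold of 0.05. Between genotypes, Myl7 minus Myl2 was 0.54 higher in KO than in WT in the heart (exact permutation p = 0.5) and 0.54 higher in the lung (exact permutation p = 0.9). For Myl4 minus Myl3 the values were 0.46 (exact permutation p = 0.5) and 0.29 (exact permutation p = 0.7). With 3 against 3 libraries the smallest p possible was 0.1. In the heart the sign of both genotype differences turned without WT heart 3, to -0.23 and -0.33, and in the lung without KO lung 2, to -1.04 and -0.12.

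The comparison of lung with heart across all genes asked how much RNA of each chamber gene the lungs held. Myl7, Myl4 and Sln were 8.20-fold, 9.75-fold and 10.4-fold lower in lung, Bmp10 and the ventricular genes were lower by far larger factors, and Nr2f2 was higher. A gene was tested if its deposited value reached 3.46, that is 10 counts after the scaling, in 3 or more libraries. Bmp10 and Irx4 did so in the hearts alone, so a lower value in lung was fixed by how they entered. These genes are given as bounds with no test. Each of the other 5 passed the thresholds used throughout (an adjusted p below 0.05, at least a 1.5-fold difference, and 6 or more as the larger group mean), against 51.3% of 17666 genes tested. Of these 5, 4 were lower, against 21.2% of all genes, and 1 was higher, against 30.1%, and the median difference of all genes tested was 0.31.

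Myl7 was lower in lung by a log2 difference of -3.04 (SE 0.49, adjusted p = 9.05e-05, limma with Benjamini-Hochberg adjustment over all genes, here and below), Myl4 by -3.28 (SE 0.48, adjusted p = 3.85e-05) and Sln by -3.37 (SE 0.53, adjusted p = 7.03e-05). Myl2 was lower by -11.24 (SE 0.70, adjusted p = 1.03e-08), a 2430-fold difference, and by -11.96 without KO lung 3 and -10.52 without KO lung 2. Against the level of 3 counts in the lung, Irx4 was at least 163-fold lower. Bmp10 was at least 341-fold lower against the same level, or at least 40-fold lower when only the lowest heart was taken. Nr2f2 was 3.64-fold higher in lung (log2 difference 1.86, SE 0.22, adjusted p = 5.68e-06).

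Set as a percentage of the heart level, the lungs held 12.2% for Myl7, 10.3% for Myl4 and 9.65% for Sln. The same percentage was 0.0412% for Myl2 and 0.199% for Myl3. Contractile genes used by muscle of both chambers lay between these, with 0.763% for Myh6, 0.639% for Tnnt2, the cardiac troponin T, and 0.935% for Actc1, the cardiac actin. Tbx5, a transcription factor gene of the list of muscle in both chambers, lay above all of them at 47.5%. The atrial hormone gene Nppa did not follow the atrial light chains. Its lungs held 0.179% of the heart level, and Nppa minus Myl7 was between 0.55 and 2.96 in the hearts and between -5.31 and -4.42 in the lungs. The atrial genes were therefore unequal in the lung, from 12.2% of the heart level for Myl7 to a value listed at 0 for Bmp10.

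Of a list of 16 atrial genes that includes 5 of the 7, 12 were lower in lung, 2 were higher and 2 did not pass, with a median difference of -2.69. Over all genes tested 21.2% were lower and 30.1% higher, which is the background for this and the next lists. The genes higher in lung were Nr2f2 and Gja5, a gap junction gene that arterial endothelium also uses. Of 11 ventricular genes tested, 9 were lower, 1 was higher and 1 did not pass, with a median of -7.78. All 20 genes of muscle in both chambers were lower, with a median of -6.73. Of 10 genes of the sinus node and the pulmonary vein sleeve, 7 were lower and 1 was higher. Among them Hcn4, the pacemaker channel, differed by -5.64 and Cacna1g, a calcium channel, by -6.27. The counts of these lists include genes that passed the filter through the hearts, among them Bmp10, Irx4, Nkx2-5 and Hcn4. Hcn4 lay between 1.52 and 3.53 in the lungs. For such genes a lower value in lung was fixed by how they entered and is no test.

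**Figure D3:**
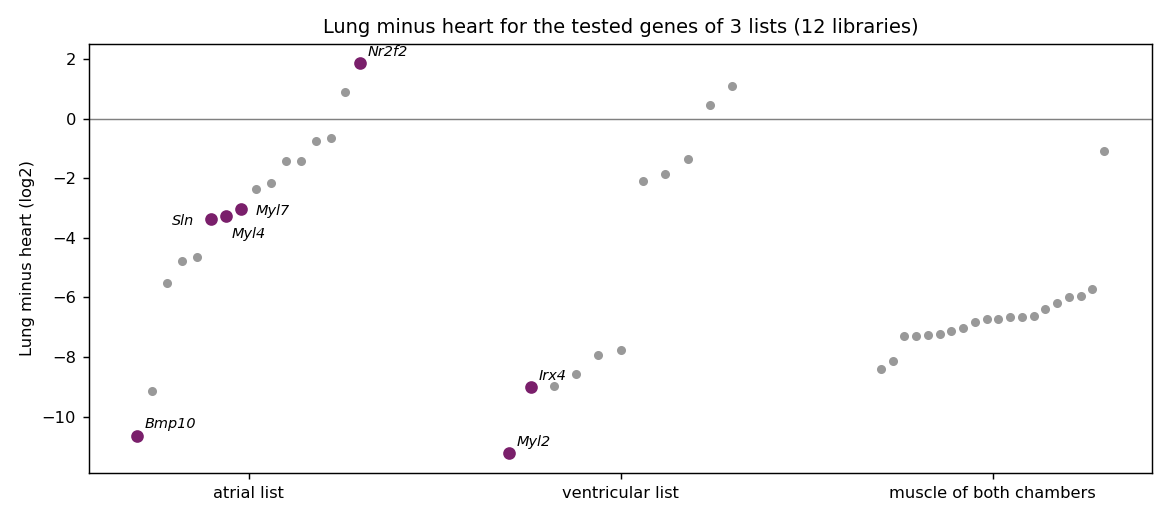
Lung minus heart log2 difference (12 libraries) of the tested genes of the atrial list, the ventricular list and the list of muscle in both chambers, sorted within each list, with the 7 genes in purple. Myl4, Myl7 and Sln lie between -3.37 and -3.04, above the muscle list's median of -6.73, while Myl2 and Irx4 are at the bottom of the ventricular list. The points for Bmp10 and Irx4 are fitted values against lungs listed at or near 0 and are not bounds.

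The same shares over all genes, 30.1% higher and 21.2% lower, stand beside the counts for the pathways around the 7 genes, whose lists include members. Among 15 myosin light chains and their kinases, 9 were lower in lung and 3 higher, with the heart-muscle kinase gene Mylk4 at -6.73. Among 10 genes of the calcium pump and its regulators, 7 were lower and 1 higher, and Sln was less reduced than Pln, the phospholamban gene, at -7.95 (adjusted p = 1.3e-13, limma with Benjamini-Hochberg adjustment). The difference between these reductions was not tested. Of 16 tested genes of BMP10 signalling 10 were higher in lung and 2 lower, led by Tmem100 at 5.20 and Acvrl1, which encodes ALK1, at 3.53. The lung, where Bmp10 was listed at 0, thus held more RNA of its receptor gene than the heart. Of 17 chamber transcription factors 9 were lower and 6 higher, with Nkx2-5 at -7.29 and Hand2 at -6.93. In the lungs Nkx2-5 lay between 2.44 and 4.31 and Hand2 between 1.8 and 3.49. Both entered the test through the hearts, so their lower calls are no test. The same holds for Bmp10, Irx4 and the calcium pump regulator Strit1 in the counts of these lists. Of 8 tested genes on a list of venous and lymphatic endothelium other than Nr2f2, 5 were higher in lung, with Pdpn at 4.21 and Lyve1 at 2.57. Prox1 was lower at -5.23. Which cells of either tissue held the RNA of these genes was not tested.

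Skeletal muscle genes marked 1 lung. In WT lung 2, 13 of 17 skeletal muscle genes had their highest value among the lungs, with the fast myosin heavy chain Myh1 at 10.21 there and at 4.80 or less in the other lungs. The share of all genes that were highest in WT lung 2 is not given, so this count has no background beside it. The summed level of the list was 12.69 in WT lung 2 and 10.78 to 11.52 in the others, on a log2 scale, and 1 of the 17 genes was at 0 in every lung. Myl2 in that lung was 7.64, the second highest, whereas the highest, 8.31 in KO lung 3, stood beside a Myh1 value of 2.87. Red blood cell genes also varied, with summed levels of 14.91 to 16.66 in WT lungs and 12.85 to 17.16 in KO lungs. The part of either in the lung values of the chamber genes was not tested.

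Between genotypes, none of the 7 genes passed in the heart, against 0.085% of 15303 genes tested. The count at an unadjusted p under 0.05 was 1141 over all genes, and none of the 7 was among them. The KO minus WT log2 differences were 0.48 for Myl7 (95% interval -1.22 to 2.19), 0.42 for Myl4 (-1.33 to 2.17), 0.16 for Sln (-1.70 to 2.02) and 0.08 for Bmp10 (-2.34 to 2.50). These intervals are wide, and a difference of 2-fold in either direction was not detectable for the atrial genes at this spread. The ventricular genes were measured more tightly, with -0.06 for Myl2 (-0.52 to 0.40) and -0.12 for Irx4 (-0.61 to 0.38), and Nr2f2 differed by 0.37 (-0.39 to 1.13). Adjusted p-values ran from 0.804 to 0.987 (limma with Benjamini-Hochberg adjustment).

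Single hearts moved these differences and their signs. Without WT heart 3 the differences were -0.24 for Myl7, -0.24 for Myl4, -0.72 for Sln, -0.05 for Nr2f2 and 0.15 for Irx4. Without KO heart 2 they were 1.31 for Myl7, 1.34 for Myl4, 0.98 for Sln and 1.64 for Bmp10. Bmp10 then passed the thresholds (SE 0.20, adjusted p = 0.017, limma with Benjamini-Hochberg adjustment), and without KO heart 1 its difference was -0.85. The share of all genes that passed without KO heart 2 is not given, so this call has no background beside it.

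In the lung, none of the 5 genes tested passed, against 0.0665% of 16551 genes, and Bmp10 and Irx4 were too low to be tested. The atrial muscle genes had lower means in KO, by a log2 difference of -0.79 for Myl7 (95% interval -1.61 to 0.03), -0.68 for Myl4 (-1.30 to -0.06) and -0.69 for Sln (-1.54 to 0.17). Without WT lung 3 the values were -0.47 for Myl7 and -0.28 for Sln, and without KO lung 3 the value was -0.41 for Myl4. Myl4 had an unadjusted p of 0.0353 in limma, as 981 genes in all had one under 0.05, and an adjusted p of 0.809 (Benjamini-Hochberg). Nr2f2 differed by 0.15 (-0.35 to 0.65). Myl2 differed by -1.33 (-4.05 to 1.38), which became 0.12 without KO lung 2 and -2.77 without KO lung 3. In the same lungs 18 of 19 tested genes of muscle in both chambers had a difference below 0, with a median of -0.30, and none passed the test. Over all genes tested 51.6% had a difference above 0, with a median of 0.01. The 19 genes were measured in the same libraries, so they are not separate observations.

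The genotype difference in lung minus that in heart passed for none of the 7 genes, against 0.00566% of 17666 genes. For Bmp10 and Irx4, at or under the level of 3 counts in every lung, it holds little more than the heart difference. The value was -1.27 for Myl7 (adjusted p = 0.759), -1.10 for Myl4 (adjusted p = 0.782) and -1.27 for Myl2 (adjusted p = 0.823, limma with Benjamini-Hochberg adjustment). Without WT heart 3 it was -0.55 for Myl7 and -0.44 for Myl4, without KO heart 2 it was -2.10 and -2.02, and for Myl2 it ran from -2.71 without KO lung 3 to 0.18 without KO lung 2. None of the genes in the lists of chamber, light chain, calcium pump, BMP10 and transcription factor genes passed between genotypes in either tissue.

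**Figure D4:**
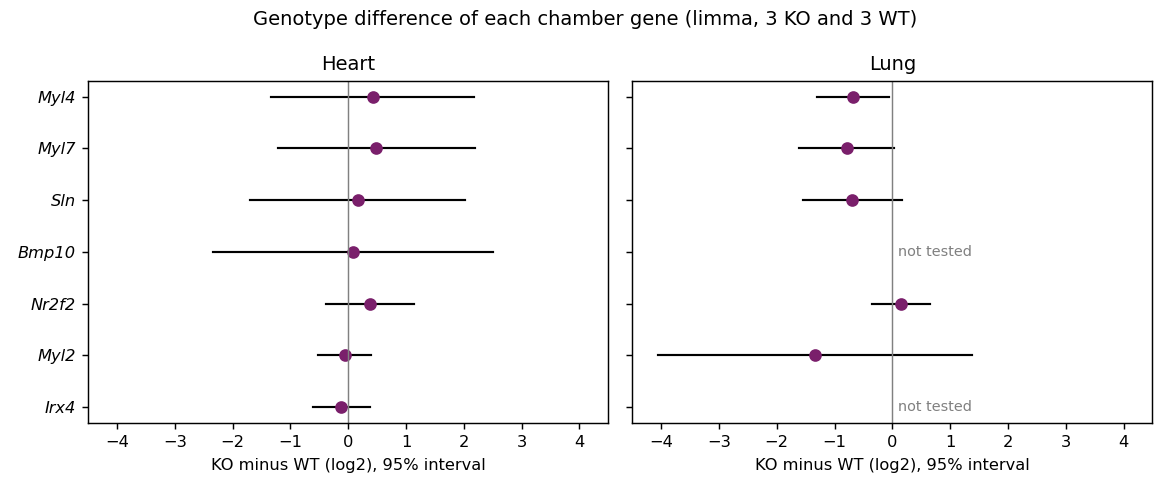
KO minus WT log2 difference of each gene in the heart (left) and the lung (right) from limma, with 95% intervals (3 KO and 3 WT libraries). The heart intervals of Myl4, Myl7, Sln and Bmp10 span more than 1 on either side of 0, those of Myl2 and Irx4 are narrow, and Bmp10 and Irx4 were not tested in the lung.

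Most genes of the atrial list shared a pattern of high and low hearts. WT heart 3 and KO heart 2 were singled out after their values were seen. They were the 2 lowest of 6 hearts for 4 of the 7 genes (Myl4, Myl7, Sln and Bmp10) and for 12 of the 16 atrial genes. For 1 atrial gene, Kcna5, they were the 2 highest, at 9.06 and 8.70. The pair lay more than 1 below the other hearts for 3 of the 7 and for 6 of the 16. Bmp10 in WT heart 3, at 10.45, was close to the next heart at 10.64. Over all genes tested in the heart the pair was lowest for 7.72%, highest for 6.55% and more than 1 below the others for 0.431%. Myl4, Myl7 and Sln, in which the pair had been seen, are in both counts, so setting these beside the shares is no test. The pair was lowest for 0 of 11 ventricular genes and for 1 of 20 genes of muscle in both chambers, Tbx5. In a bulk sample fewer atrial cells and less atrial RNA per cell cannot be told apart.

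The light chains spanned 7.67-fold for Myl7 and 7.55-fold for Myl4 over the 6 hearts, Sln spanned 7.06-fold, and Myl2 spanned 1.31-fold. Dkk3, a secreted glycoprotein gene of the atrial list, stood at 10.16 in WT heart 3 and 10.57 in KO heart 2 and at 12.07 to 12.83 in the other hearts. Nppa was lowest in WT heart 3 at 14.03, but at 15.72 in KO heart 2 it was above both remaining WT hearts, at 15.35 and 15.40. KO heart 2 therefore had little Myl7 and little Bmp10 but more Nppa than any WT heart. Among the KO hearts it was still the lowest for Nppa, as the others stood at 16.32 and 15.96. Every KO heart was above every WT heart for Nppa, by a mean log2 difference of 1.07 (SE 0.35, unadjusted p = 0.014 in limma). This genotype difference did not pass the thresholds (adjusted p = 0.6, Benjamini-Hochberg). Of 15303 genes tested in the heart, 1141 had an unadjusted p under 0.05. The share of all genes whose KO and WT hearts did not overlap is not given.

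Most fat genes were also low in this pair of hearts. Of 7 adipocyte genes, 6 had their 2 lowest values there, against 7.72% of all genes tested in the heart. Adipoq, the adiponectin gene, stood at 5.93 in WT heart 3 and 6.78 in KO heart 2 against 8.24 to 9.86 elsewhere. Among the other hearts the order differed, as KO heart 3, the highest for Myl7, had Adipoq at 8.60, below KO heart 1 at 9.86. The summed level of the adipocyte list was 12.49 to 13.66 in WT hearts and 12.99 to 13.73 in KO hearts on a log2 scale, and none of its genes was at 0 in all hearts. KO heart 2, at 12.99, was level with WT heart 2 at 12.98, so the sum did not set the pair apart. The part of fat tissue in the atrial values was not tested. The pair lay at opposite ends in depth, as WT heart 3 was the shallowest heart at 18392292 estimated counts and KO heart 2 the deepest at 35862932.

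**Figure D5:**
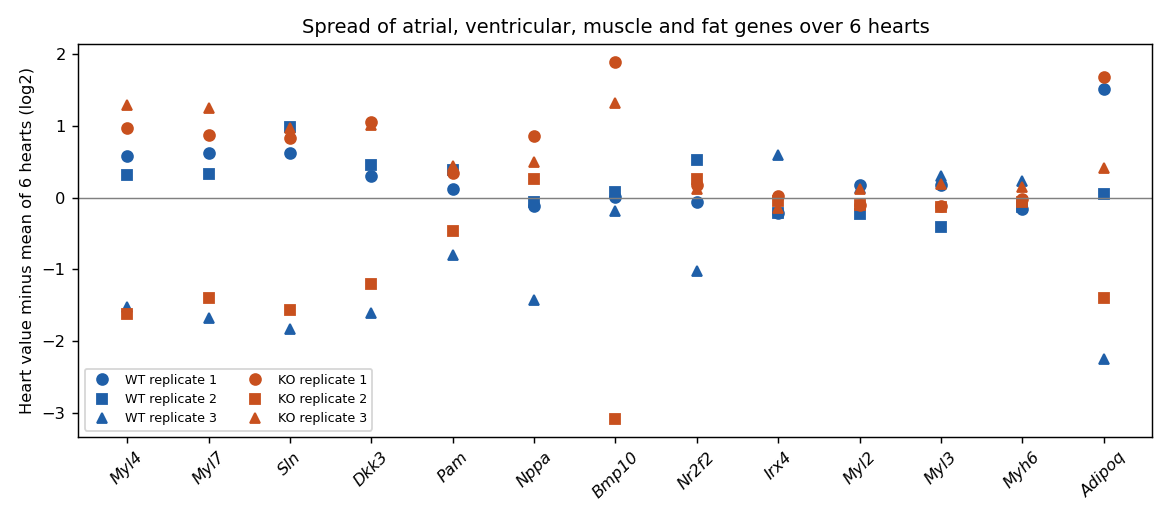
Value of each gene in each heart minus its mean over 6 hearts (log2), with WT in blue, KO in orange and the marker shape giving the replicate, for atrial genes (left), ventricular genes and Myh6 (right of centre) and the fat gene Adipoq. WT replicate 3 and KO replicate 2 lie below -1 for Myl4, Myl7, Sln, Dkk3 and Adipoq and within 1 of the mean for Myl2, Myl3 and Myh6.

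The genes whose pattern over the 6 hearts was most like that of Myl7 were Myl4 (Pearson r = 0.994), Mybphl (0.993), Sfrp5 (0.985), Dkk3 (0.985) and Gadl1 (0.984), among 317 genes with a comparable spread. Mybphl encodes a myosin-binding protein of atrial muscle. Sln ranked 8 with r = 0.969 and Bmp10 ranked 93 with r = 0.748. For Sln the nearest genes in the hearts were Fgf12 (0.994), Lmntd1 (0.994), Sbk3 (0.990), Sphkap (0.986) and Gm57233 (0.984), among 245 genes. These correlations describe 6 libraries in which 2 lie apart from 4, and the libraries share their scaling, so they carry no test.

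In the 6 lungs the genes nearest to Myl7 were Mrps24 (0.997), Mlycd (0.995), Fam120aos (0.993), H4c8 (0.992) and Rn7sk (0.992) among 3460 genes, and Myl4 ranked 72 (0.958), Sln 151 (0.930) and Myl2 2234 (-0.281). Rn7sk, the small nuclear RNA that holds back transcription elongation, spanned 2.48 on the log2 scale over the lungs. For Sln they were Cox8a (0.997), Cdc34 (0.992), Brms1l (0.992), Nipsnap3b (0.989) and Hepacam2 (0.987) among 3821 genes. The number of genes compared differs between the tissues, so the ranks are not on 1 scale.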

How the data were processed

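Hearts and lungs of 6 mice were sequenced as strand-specific total RNA. Per the study's methods and the submitters' notes, the authors trimmed reads with cutadapt, mapped them to mm39 with STAR, quantified GENCODE vM33 transcripts with Salmon and tested genes with limma (3.42.2 in the notes). The deposited gene values are on a log2 scale, as are the deposited transcript values, taken as log2 of the estimated count plus 1. For a gene of 1 transcript the gene value was the transcript value plus a constant of -0.63 to 0.80 for each library. The method behind this scaling is not given in the sources used here.

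Gene values were tested as deposited with limma 3.58.1 (lmFit, eBayes with trend, R 4.3.3). Benjamini-Hochberg adjustment ran over all genes whose deposited value reached 3.46 (10 counts after the scaling) in 3 or more libraries. Genotypes were compared within a tissue on 6 libraries, and tissues and the interaction on 12. Light chain ratios were compared by exact permutation, with the Benjamini-Hochberg adjustment from scipy 1.17.1, and levels of different genes per kilobase from transcript estimates. The script was tested on simulated data. Coordinates and upstream sequence are from GRCm39 with GENCODE vM39, and transcript copies from BLAST 2.17.0. Promoter windows for motif shares lie before the canonical transcripts of protein-coding genes in GENCODE vM39. The text names the 7 genes, Adam19, Myl3, Nppa, Myh6, Tnnt2, up to 3 genes of each list with the largest differences past the thresholds, and the 5 genes most like Myl7 and Sln. Actc1, Gja5, Adipoq, Myh1 and Tbx5 and the ratio of Nppa to Myl7 were added after their values were seen. The 7 genes and the lists were chosen with earlier results of these data known. Samples were grouped by their labels, and same-numbered hearts and lungs are paired because they come from the same mouse, although their deviations from the group means correlated only between -0.068 and 0.136. Alternatives were other weights, scalings, filters, pseudocounts, gene sums, a mouse block and leaving out each library. Depth limits the low lung values of Myl2 and Irx4, where few estimated counts stand behind a value.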

Additional observations from a re-analysis of the deposited data

How the results depend on the processing

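With the mouse as a replicate block, 7 of 7 genes still passed between lung and heart and 0 passed for the difference of the genotype effects, and the block changed no call. Without the block 51.3% of all 17666 genes tested passed between tissues, and the share with the block is not given. With the filter asking for the minimum in every library, Myl2, Bmp10 and Irx4 were removed and each of the 4 tested passed between tissues, as did 7697 of 13005 genes. The count of 7 includes Bmp10 and Irx4, which entered the test through the hearts alone. Unpaired, the exact permutation test gave p = 0.00216 (adjusted 0.00649) for the lung minus heart difference of 8.21 in Myl7 minus Myl2 and of 5.69 in Myl4 minus Myl3. That version treats the libraries as independent although heart and lung came from the same mice. The paired test, which did not pass after adjustment, is the one that respects the design. With a pseudocount of 5 the Irx4 genotype difference in lung minus that in heart was 0.02 in place of -0.24, and the cause was not tested. Leaving out each library in turn, 0 to 1 of the 7 genes passed between genotypes in the heart (Bmp10 without KO heart 2). With every heart kept, 0.085% of all genes tested passed, and the shares with a heart left out are not given. The heart differences then ranged from -0.24 to 1.31 for Myl7, -0.24 to 1.34 for Myl4, -0.72 to 0.98 for Sln, -0.85 to 1.64 for Bmp10, -0.05 to 0.73 for Nr2f2, -0.18 to 0.01 for Myl2 and -0.25 to 0.15 for Irx4. The lung differences ranged from -2.77 to 0.12 for Myl2 and -0.01 to 0.33 for Nr2f2. Lung minus heart genotype effects ranged from -1.64 to 0.85 for Bmp10, -2.71 to 0.18 for Myl2, -1.66 to 0.03 for Sln and -0.58 to 0.20 for Nr2f2. Myl7 minus Myl2 ranged from -0.23 to 1.33 in the heart and -1.04 to 2.28 in the lung, and Myl4 minus Myl3 from -0.33 to 1.33 and -0.12 to 0.67. Under the settings that kept every library, 240 single-gene values kept their direction and side of the threshold and 1, that of Irx4, did not.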
